A study of Mus musculus with 8 samples.

Results

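To examine what loss of the retinoblastoma protein RB does to gene expression before any drug is given, 4 of the 8 arrays of the series were compared, namely the pair from untreated RB-deficient fibroblasts (Cre Naïve) and the pair from untreated RB-proficient fibroblasts (GFP Naïve). The arrays were taken by their sample labels alone and no measured value was used to choose them. All cells were mouse adult fibroblasts (MAFs) grown out of peritoneal fascia, from mice in which both copies of Rb carry loxP sites. GFP Naïve cells had been infected with an adenovirus that carries green fluorescent protein (GFP), so that Rb stayed in place, and Cre Naïve cells with one that carries GFP and Cre recombinase, which cuts out the exon between the loxP sites. Both kinds of cells, and therefore the control as well, also carried p53DD, a truncated p53 that disables the p53 protein of the cell, from a retrovirus. None of these 4 populations had seen cisplatin. The other 4 arrays, GFP Recurred and Cre Recurred, come from cells of the same 2 kinds that grew out again after 24 h of cisplatin, and they are used where a gene seen in untreated cells could be looked at on other arrays. Infected cells were selected and pooled, not cloned, and at least 2 populations were generated independently per the methods, but nothing says whether they came from different mice. In bulk RNA a lower signal from fewer cells of one kind and from less RNA per cell cannot be told apart.

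RB is a pocket protein. It binds E2F transcription factors in G1 phase and holds back the genes for DNA replication until kinases paired with D cyclins, and later with cyclin E, phosphorylate it. Its relatives p107 (Rbl1) and p130 (Rbl2) bind other E2Fs, and as part of the DREAM complex they hold back many genes of G2 phase and mitosis as well. The p53 arm of the same network acts mostly through p21 (Cdkn1a), which inhibits the kinases that phosphorylate the pocket proteins.

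All values are log2 signals of the Robust Multichip Average (RMA), a procedure that corrects background, brings the arrays to the same distribution and summarises the probes of a probe set, so a step of 1 is a 2-fold difference. Array medians lay between 5.37 and 5.41. Of 19 fibroblast markers measured, 17 lay above the array median on every untreated array, among them Col1a1, Vim and Dcn, and Dpp4 and Pi16 did not. Of 14 mesothelial, 9 epithelial, 10 endothelial and 13 leukocyte markers, 2 of each list lay above it. So did 4 of 7 adipocyte markers, 5 of 12 smooth and skeletal muscle markers and 5 of 7 Schwann and neural markers. Ptprc, which encodes the leukocyte antigen CD45, had signals from 3.09 to 3.19, and Adgre1, a macrophage surface receptor gene, from 3.14 to 3.61. Cd14, of the same leukocyte list, was bright, with 9.43 and 8.88 on the GFP Naïve arrays and 9.94 and 9.54 on the Cre Naïve arrays. It thus lay higher on both Cre Naïve arrays (log2 difference 0.59, standard error 0.22). The lysozyme gene Lyz1 stood out on GFP Naïve replicate 1 with 7.54, against 3.66 on GFP Naïve replicate 2 and 5.34 and 2.92 on the Cre Naïve arrays, and its part in any result was not tested. With 2 arrays a group an exact permutation test cannot give a two-sided p below 0.333, and the number of arrays limits the precision throughout.

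Rb1 had the widest separation of all the brighter genes between the groups. Its main probe set read 7.98 and 8.07 on the GFP Naïve arrays and 6.21 and 5.72 on the Cre Naïve arrays. Both Cre Naïve arrays were thus far below both GFP Naïve arrays, with a gap of 1.77 between the nearest of them and a mean 4.18-fold lower (log2 difference -2.06, 95% confidence interval -2.68 to -1.45). Cre Naïve replicate 2 was the lower of the pair, at -2.31 from the GFP Naïve mean against -1.82 for replicate 1. The remaining probe set of Rb1 was dim, at 3.60 and 3.57 against 4.47 and 3.76. Rb1 spans chr14:73192858-73325951 (GRCm38.p6), and where its probes lie relative to the removed exon is not given in the sources used here, so these signals measure transcript and do not check the deletion.

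Across all 45037 probe sets, limma called 0 past the thresholds of the study (1.5-fold and a false discovery rate under 25%, read as an adjusted p under 0.25). The smallest adjusted p was 0.997, which is therefore the least adjusted p of every untreated difference given here, Rb1 included. Before adjustment 1159 probe sets (2.57%) had p under 0.05, and 1312 (2.91%) differed by 1.5-fold whatever their p. A test of the kind used in SAM called 0 and returned no estimate of the false discovery rate. The 0 of limma's treat, which asks for a difference above 1.2-fold in the same fit, follows from the limma result and adds nothing to it. Without Cre Naïve replicate 1 the thresholds were passed by 275 probe sets, without GFP Naïve replicate 1 by 2, without Cre Naïve replicate 2 by 1 and without GFP Naïve replicate 2 by 0. In the following, differences between untreated cells are accordingly described by the arrays themselves, by whether both Cre Naïve arrays lay on one side of both GFP Naïve arrays, and by how common that was over all genes. With 1 probe set per gene, 2536 of 18193 genes (13.9%) lay higher on both Cre Naïve arrays than on both GFP Naïve arrays and 2412 (13.3%) lower, and of the 11218 genes above the median signal 14.7% lay higher and 12.2% lower. With a difference of 1.5-fold added, 113 genes (0.621%) lay higher and 167 (0.918%) lower. The median log2 difference over all genes was 0.00, and medians of gene lists are read against it.

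Among 20 pocket protein and E2F genes, 6 lay higher on both Cre Naïve arrays, against a background of 13.9% of genes, and Rb1 alone lay lower. E2f8, which encodes an atypical E2F that represses E2F targets, read 8.43 and 8.65 on the GFP Naïve arrays and 8.80 and 9.21 on the Cre Naïve arrays, a log2 difference of 0.47 with a standard error of 0.25. Rbl1, which encodes the relative p107, read 9.03 and 8.83 against 9.17 and 9.24 (0.27, standard error 0.19). E2f2, an activating E2F, read 6.40 and 6.53 against 6.72 and 6.66. These 3 genes shifted by less than 1.5-fold on the means. E2f1 overlapped between the groups, with 8.40 and 8.61 against 8.59 and 8.26, and so did Rbl2 with 8.36 and 7.70 against 8.32 and 8.10. In the recurred arrays Rbl1 and E2f8 passed the thresholds of the study in the same direction, with log2 differences of 0.88 (limma adjusted p = 0.0879) and 1.35 (limma adjusted p = 0.0671).

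On the kinase side of the pathway the genes of all 3 D cyclins lay lower on both Cre Naïve arrays. Of 16 genes for D cyclins, their kinases and the inhibitors of these kinases, 6 lay lower on both Cre Naïve arrays (37.5%, against 13.3% of all genes) and 1 higher, and 3 of the lower genes had an unadjusted p under 0.05, which 1.32% of all probe sets had as lower. Ccnd2, which encodes cyclin D2, read 12.46 and 12.47 on the GFP Naïve arrays and 12.02 and 11.21 on the Cre Naïve arrays at its brightest probe set (log2 difference -0.85, standard error 0.26). All 7 probe sets of Ccnd2 were lower on both Cre Naïve arrays, with log2 differences from -1.16 to -0.78. Ccnd1, which encodes cyclin D1, read 11.30 and 11.46 against 10.55 and 10.92 (-0.64, standard error 0.23), and all 3 of its probe sets lay lower, from -0.72 to -0.54. The probe sets of a gene share their RNA and are not replicates. Here the Cre Naïve replicates changed places, since replicate 1 was the lower for Ccnd1 and replicate 2 for Ccnd2. Ccnd3, which encodes cyclin D3, read 10.92 and 11.13 against 10.90 and 10.68, with the nearest arrays 0.02 apart. Cdk6, the gene of a kinase partner of these cyclins, read 10.01 and 9.73 against 9.58 and 9.36, whereas Cdk4 overlapped, with 11.92 and 11.77 against 11.77 and 11.71. Cdkn2c, which encodes the inhibitor p18, was the 1 gene of the list that lay higher, at 9.98 and 9.56 against 10.19 and 10.26. Cdkn2a, the gene of p16 and p19ARF, varied more within the groups than between them (9.97 and 8.92 against 10.76 and 8.73). Cdkn1a overlapped too, with 9.09 and 10.11 against 9.85 and 10.55. Of 28 genes that p53 activates, 2 lay higher (7.14%, against 13.9% of all genes) and 1 lower (3.57%, against 13.3%), in cells that all carried p53DD.

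Genes of G1 and S phase that E2F factors activate differed little. Of 56 measured, 15 lay higher on both Cre Naïve arrays (26.8%, against 13.9% of all genes) and 3 lower, and the median log2 difference was 0.07, with 0.03 on Cre Naïve replicate 1 and 0.10 on replicate 2. Lig1, which encodes the ligase that joins Okazaki fragments, was the 1 member that lay apart by 1.5-fold. It read 10.12 on both GFP Naïve arrays and 10.60 and 11.01 on the Cre Naïve arrays (0.68, standard error 0.16, unadjusted p = 0.00408). Pold1, the catalytic subunit of DNA polymerase delta, read 9.52 and 9.77 against 9.83 and 10.32. Tyms, thymidylate synthase, read 6.77 and 6.44 against 7.18 and 6.96. Pcna, the sliding clamp of the polymerases, read 12.88 and 13.00 against 12.96 and 12.93, so the Cre Naïve arrays lay between the GFP Naïve arrays. Mcm7, a subunit of the replicative helicase, read 12.44 and 12.09 against 12.47 and 12.61, and the nearest arrays were 0.03 apart. For Pcna the 95% confidence interval of the log2 difference ran from -0.33 to 0.34 and for Mcm7 from -0.07 to 0.63. In the recurred arrays the same list had a median of 0.35, and 15 of its 56 genes passed the thresholds of the study as higher in Cre Recurred cells, where 4.08% of all probe sets did. All 56 were bright genes, and in a fit of the brighter probe sets alone 1607 of 22518 passed as higher.

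Promoters of 3 genes that hold a match to known motif letters are printed here. They are those of the helicase genes Mcm7 and Mcm6 and of Hmgcs1, the sterol gene described further on. Each is the stretch of 250 bases before the RefSeq gene start (GRCm38.p6), read on the strand of the gene, and capitals mark the matches. For the helicase genes the letters searched were TTTCGCGC, TTTGGCGC, TTTCCCGC and TTTGCCGC on both strands, forms that E2F factors are known to bind, and for the sterol gene TCACNCCAC on both strands, a form of the sterol element. In the first Mcm6 block of capitals 2 matches on opposite strands overlap.
Mcm7: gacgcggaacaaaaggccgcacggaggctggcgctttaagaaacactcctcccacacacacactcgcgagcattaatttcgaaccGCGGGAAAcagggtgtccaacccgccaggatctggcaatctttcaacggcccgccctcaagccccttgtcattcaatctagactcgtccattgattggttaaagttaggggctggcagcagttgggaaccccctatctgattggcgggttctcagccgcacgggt
Mcm6: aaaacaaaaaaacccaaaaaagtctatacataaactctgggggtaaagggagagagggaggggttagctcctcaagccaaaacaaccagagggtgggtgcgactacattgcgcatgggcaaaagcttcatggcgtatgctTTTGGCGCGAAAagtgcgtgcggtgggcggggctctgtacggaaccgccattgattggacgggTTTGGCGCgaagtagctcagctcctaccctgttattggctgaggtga
Hmgcs1: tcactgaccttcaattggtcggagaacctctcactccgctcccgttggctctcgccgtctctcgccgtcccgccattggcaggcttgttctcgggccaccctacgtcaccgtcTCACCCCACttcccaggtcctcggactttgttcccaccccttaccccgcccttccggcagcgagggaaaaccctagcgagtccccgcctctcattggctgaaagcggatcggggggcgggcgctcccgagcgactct
The Mcm7 stretch is chr5:138171884-138172133 on the minus strand, with 1 match that begins 165 bases before the start. The Mcm6 stretch is chr1:128359706-128359955 on the minus strand and holds 3 matches. The Hmgcs1 stretch is chr13:119690101-119690350 on the plus strand, and its match begins 137 bases before the start. An E2F match was found in 2.2% of 27025 genes with a promoter in the table and in 12 of the 47 G1/S genes found there (25.5%), 1 of the 38 G2/M genes and 1 of the 16 sterol genes. Among those 12 G1/S genes, 3 lay higher and 1 lower on both Cre Naïve arrays, where 13.9% and 13.3% of all genes did. Of the 56 measured genes of the whole G1/S list, 15 lay higher and 3 lower. The log2 differences of the 12 ran from -0.21 to 0.28. The sterol element was found in 1.2% of all genes and, of the 16 sterol genes, in Hmgcs1 alone. A match describes the letters and no binding was measured.

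Of 44 measured genes of G2 phase and mitosis, 21 were higher on both Cre Naïve arrays (47.7%, against 13.9% of all genes) and 0 were lower, with a median log2 difference of 0.30 and 42 of 44 genes above 0. The 2 Cre Naïve arrays contributed unequally, with medians of 0.08 on replicate 1 and 0.49 on replicate 2 relative to the GFP Naïve mean. Cdc25b, the phosphatase that starts the activation of Cdk1, read 8.53 and 8.58 on the GFP Naïve arrays and 8.85 and 9.30 on the Cre Naïve arrays (0.52, standard error 0.19, unadjusted p = 0.0256). Top2a, the topoisomerase that untangles sister chromatids, read 11.26 and 11.19 against 11.51 and 11.89 (0.48, standard error 0.19, unadjusted p = 0.0383). Both genes followed the order of the list, with Cre Naïve replicate 2 highest and GFP Naïve arrays lowest. Prc1, which bundles the microtubules of the central spindle, read 10.30 and 10.25 against 10.46 and 11.11. Cenpf, a kinetochore protein, read 9.18 and 9.37 against 9.46 and 10.15. Ccna2, cyclin A2, which acts in S phase and in G2, showed nearly all of its difference on 1 array, with 11.08 and 11.04 against 11.08 and 11.79. On that array Ccna2 stood 0.72 above the GFP Naïve mean. It lies on chromosome 3, whose brighter genes had a median of 0.23 there, and the part of this shift in the Ccna2 value was not tested. The letters TTTGAA, the core of the cell cycle homology region through which the DREAM complex acts, were found in the promoters of 12 of 38 G2/M genes (31.6%) and of 18.3% of all genes.

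**Figure D1:**
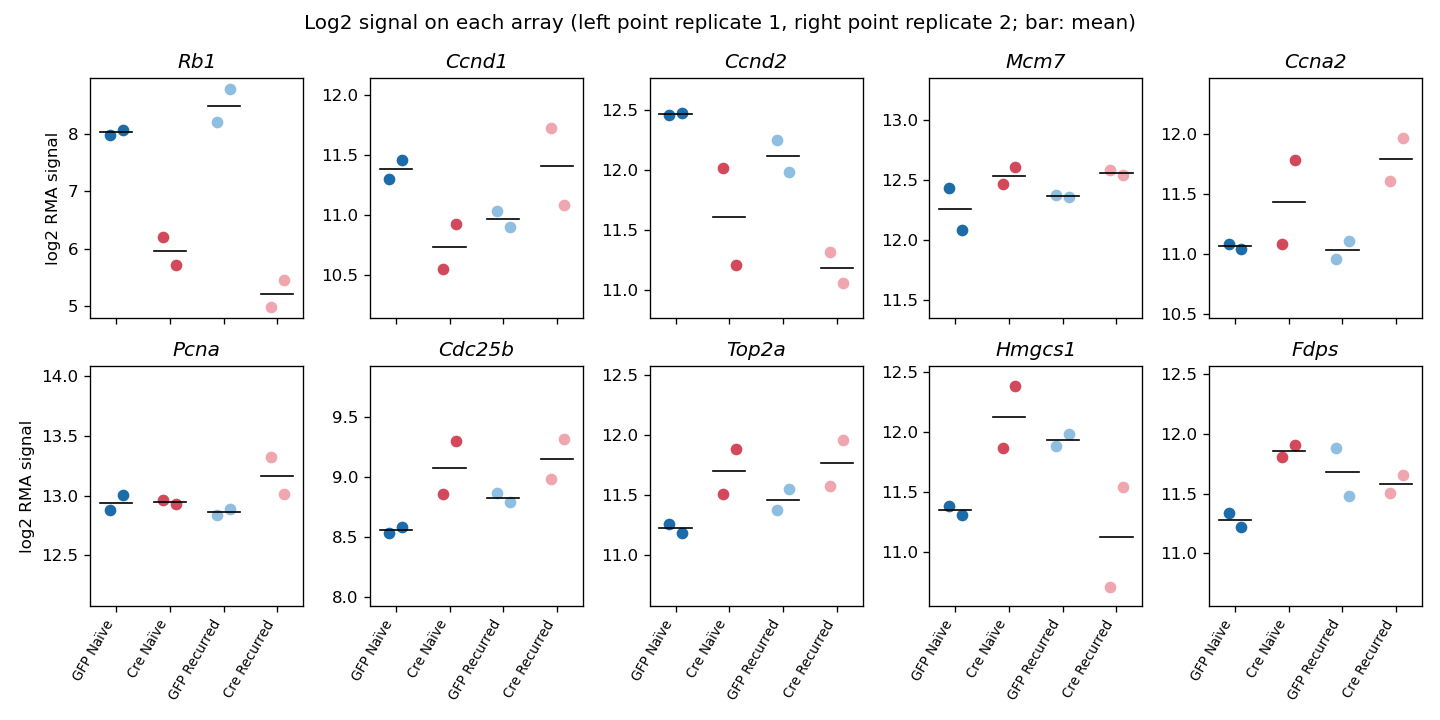
Log2 RMA signal (vertical axis) of 10 genes on each of the 8 arrays, grouped by population on the horizontal axis, with a bar at the mean of each pair. Rb1, Ccnd1 and Ccnd2 were lower and Cdc25b, Top2a, Hmgcs1 and Fdps higher on both Cre Naïve arrays than on both GFP Naïve arrays, the Pcna arrays overlapped, and for Ccna2 Cre Naïve replicate 1 lay beside the GFP Naïve arrays.

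Among the gene lists examined, cholesterol and fatty acid synthesis had the highest share of genes that lay higher in the Cre Naïve cells. Of its 22 measured genes, 20 were higher on both Cre Naïve arrays (90.9%, against 13.9% of all genes), 0 were lower, and 7 had an unadjusted p under 0.05, a mark that 1.25% of all probe sets met as higher. The median log2 difference was 0.35, and both arrays shared in it, with 0.30 on replicate 1 and 0.43 on replicate 2. Hmgcs1, HMG-CoA synthase of the mevalonate pathway, read 11.39 and 11.31 on the GFP Naïve arrays and 11.87 and 12.39 on the Cre Naïve arrays at its brightest probe set (0.78, standard error 0.28). All 5 of its probe sets lay higher, from 0.56 to 1.49, and the widest was a dimmer one with 6.03 and 5.07 against 6.83 and 7.26. Fdps, farnesyl diphosphate synthase, read 11.34 and 11.22 against 11.80 and 11.90 (0.57, standard error 0.16). Cyp51, which removes a methyl group from lanosterol, read 10.77 and 10.69 against 11.11 and 11.15. These 3 enzymes of the sterol branch thus lay apart with replicates that were close to each other within each group, Hmgcs1 on the Cre Naïve arrays excepted. Srebf2, the gene of the transcription factor SREBP-2 that drives the pathway, read 9.60 and 9.77 against 10.17 and 10.25. Elovl6, a fatty acid elongase, read 10.26 and 9.99 against 10.53 and 10.72. The 2 genes that overlapped were Fasn, fatty acid synthase, with 10.72 and 11.02 against 10.78 and 11.28, and Dhcr7, the last enzyme of cholesterol synthesis, with 9.09 and 9.33 against 9.59 and 8.94. In the recurred arrays the direction was the other way, with a median of -0.39 and 5 of 22 genes past the thresholds of the study as lower in Cre Recurred cells, where 4.78% of all probe sets were. In a fit of the brighter probe sets alone 2092 of 22518 passed as lower. The GFP Recurred arrays, RB-proficient as well, read 11.88 and 11.99 for Hmgcs1, within the range of the Cre Naïve arrays.

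**Figure D2:**
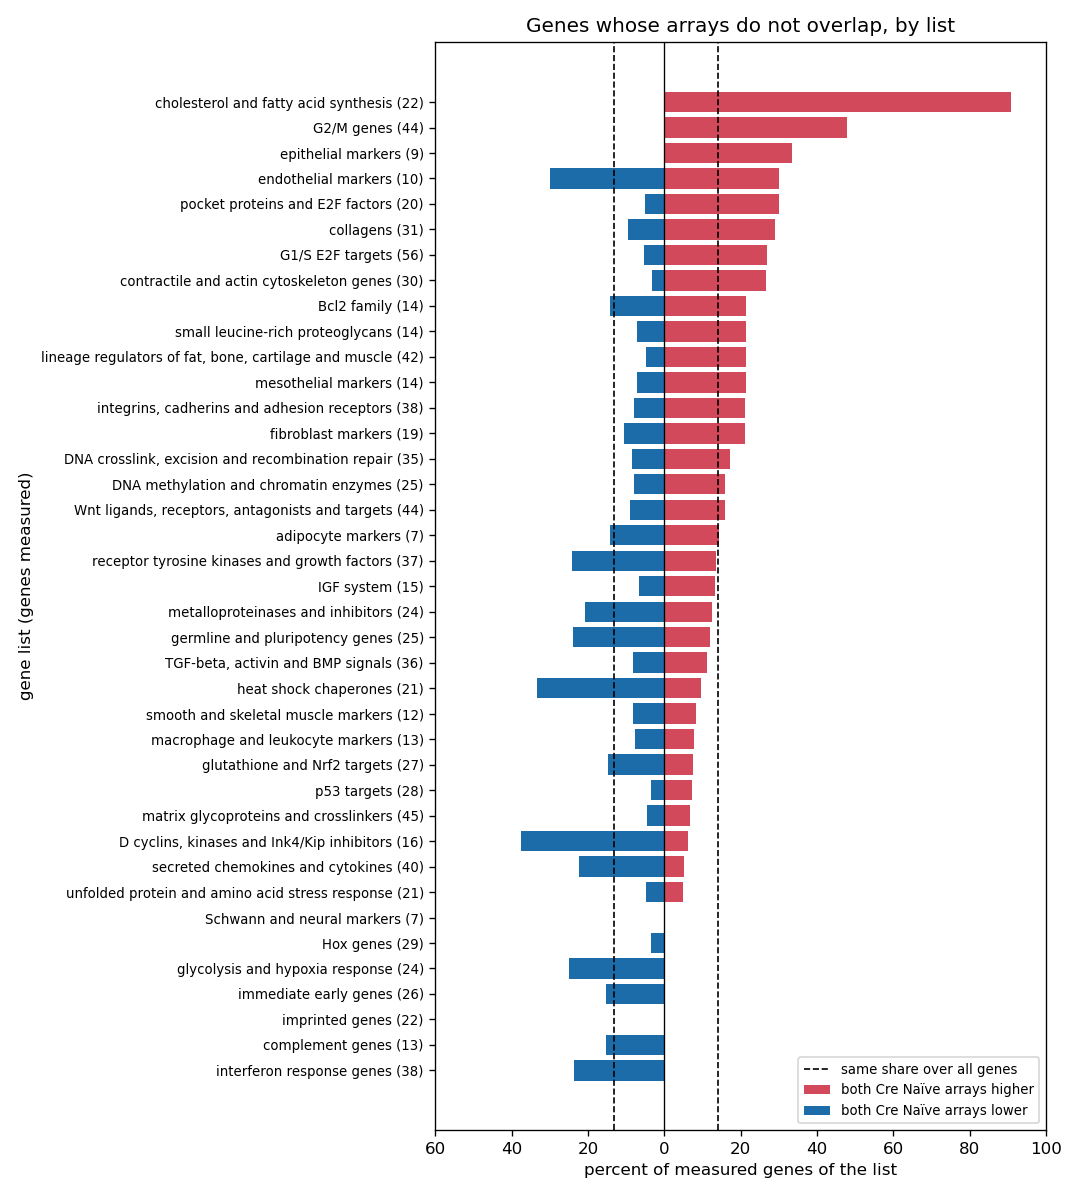
Percent of the measured genes of 39 lists (number of genes in brackets) that lay higher on both Cre Naïve arrays than on both GFP Naïve arrays, to the right, or lower, to the left, with dashed lines at the shares over all genes, 13.9% and 13.3%. Cholesterol and fatty acid synthesis (90.9%) and G2/M genes (47.7%) reach farthest to the right and the D cyclin list (37.5%) farthest to the left. The sex chromosome list, in which 2 of 4 genes lay higher (50%), is not drawn.

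Secreted and interferon-induced genes leaned the other way. Of 40 chemokine and cytokine genes 9 lay lower on both Cre Naïve arrays (22.5%, against 13.3% of all genes) and 2 higher. The median was -0.10, and 17 of the 40 had a log2 difference above 0. The member with the smallest unadjusted p, Tnfrsf11b, lay higher and is described further on. Ccl7, a monocyte chemokine, read 11.73 and 12.23 on the GFP Naïve arrays and 11.42 and 10.09 on the Cre Naïve arrays (-1.23, standard error 0.41). Csf2, which encodes the growth factor GM-CSF, read 5.94 and 5.73 against 5.25 and 5.06. Tslp, an epithelial and stromal cytokine, read 5.53 and 7.47 against 5.39 and 4.90, so a large part of its difference came from GFP Naïve replicate 2. Of 38 interferon response genes 9 lay lower and 0 higher, with a median of -0.37, of which Cre Naïve replicate 2 showed -0.57 and replicate 1 -0.19. The GFP Naïve arrays differed among themselves by more than that, with a median of -0.74 for replicate 2 less replicate 1. Oas1a, which makes the 2′-5′ oligoadenylates that activate RNase L, read 9.02 and 8.73 against 8.36 and 7.62. Mx2, an antiviral GTPase, read 5.88 and 5.74 against 5.52 and 5.18 (-0.46, standard error 0.15). Ccl7, Csf2, Tslp, Oas1a and Mx2 were thus all lowest on Cre Naïve replicate 2.

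Of 37 receptor tyrosine kinase and growth factor genes 9 lay lower (24.3%, against 13.3% of all genes) and 5 higher (13.5%, near the 13.9% of all genes). Vegfc, which drives the growth of lymphatic vessels, read 9.33 and 9.36 in GFP Naïve cells against 9.07 and 7.20 in Cre Naïve cells. Pdgfd, a ligand of the PDGF receptor beta, read 8.63 and 8.13 against 7.94 and 5.83. In both, Cre Naïve replicate 1 lay close to the GFP Naïve arrays and replicate 2 far below. Adm, the gene of the vasodilator adrenomedullin and a hypoxia target, had the same form with 11.26 and 11.68 against 10.92 and 8.82, and in its list of 24 glycolysis and hypoxia genes 6 lay lower (25%) and 0 higher. Of 21 genes of the unfolded protein and amino acid stress response 1 lay lower and 1 higher (4.76% each). Of 21 heat shock chaperones 7 lay lower (33.3%) and 2 higher (9.52%), by small steps such as that of Hspb1, which encodes HSP27, from 12.22 and 12.01 to 11.69 and 11.84.

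Matrix genes were mixed. Of 31 collagens 9 lay higher on both Cre Naïve arrays (29.0%, against 13.9% of all genes) and 3 lower (9.68%, against 13.3%), with a median of 0.12. Col1a1, the main chain of type I collagen, read 12.28 and 12.30 against 12.80 and 13.22 (0.72, standard error 0.45), and Col6a3, a chain of the beaded filaments of collagen VI, 11.21 and 11.41 against 12.01 and 11.70. Col8a1, a short-chain collagen, lay the other way with 11.23 and 10.43 against 10.30 and 9.95. Of 45 matrix glycoprotein and crosslinker genes 3 lay higher (6.67%) and 2 lower (4.44%). Among the higher was Tgfbi, with 9.62 and 7.95 against 10.01 and 11.29 (1.86, standard error 0.97). Of 24 metalloproteinases and inhibitors 3 lay higher (12.5%) and 5 lower (20.8%). Of 14 small leucine-rich proteoglycans 3 lay higher (21.4%) and 1 lower (7.14%). Among 44 Wnt pathway genes 7 lay higher (15.9%) and 4 lower (9.09%), shares near those of all genes. Wnt4, a ligand, read 7.85 and 6.80 against 8.27 and 8.43 (1.02, standard error 0.31), and Grem1, a secreted antagonist of bone morphogenetic proteins, 11.13 and 12.01 against 10.83 and 10.64. Of 29 Hox genes 0 lay higher and 1 lower (3.45%, against 13.3% of all genes), and all 22 imprinted genes overlapped between the groups.

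Over all brighter genes, members of the lists included, those with the widest gap between the groups were taken in each direction. Higher in Cre Naïve cells were Kazald1, a secreted protein with a Kazal domain, with 5.48 and 5.41 against 6.38 and 7.04, and Tnfrsf11b, the decoy receptor osteoprotegerin, with 5.41 and 4.97 against 6.17 and 6.62 (1.21, standard error 0.23). Cspg4, the NG2 proteoglycan of pericytes and stromal cells, read 6.11 and 4.89 against 6.86 and 7.57. Idh2, mitochondrial isocitrate dehydrogenase, read 10.02 and 9.81 against 10.71 and 10.68 (0.78, standard error 0.14), although its remaining probe set differed by 0.04. The others of the 12 were Hmgcs1, Sorcs1, Gcnt2, Lockd, Ccdc80, Car2, Cenpk and Il20ra, with log2 differences from 0.75 for Gcnt2 to 1.49 for Hmgcs1. Cenpk, a kinetochore protein, read 5.86 and 5.55 against 6.47 and 6.75 at the probe set with the widest gap. Its brightest probe set overlapped, with 9.19 and 9.46 against 9.40 and 10.13, and so did the remaining probe set of Tnfrsf11b. Lockd is a noncoding RNA that lies beside Cdkn1b.

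After Rb1, the widest gap among the lower genes was that of Cd34, a surface sialomucin of stromal and blood progenitor cells. It read 9.68 and 11.28 on the GFP Naïve arrays and 8.65 and 6.92 on the Cre Naïve arrays (-2.69, standard error 0.75), so the replicates of each group were themselves more than 2-fold apart. Pcolce2, which enhances the processing of procollagen, read 8.61 and 9.63 against 7.69 and 7.09. Hhip, a membrane protein that sequesters Hedgehog ligands, read 7.03 and 7.22 against 6.06 and 6.15, and all 4 of its probe sets lay lower. Cd24a, a small surface glycoprotein, read 8.22 and 7.70 against 6.30 and 7.01 at the probe set with the widest gap. At its brightest probe set the nearest arrays were 0.09 apart (9.67 and 8.82 against 7.68 and 8.73), and its remaining probe set overlapped. The others were Havcr2, Bmerb1, Sytl2, Vstm5, Ccnd2, AA467197 and Fabp3, from -1.79 for Havcr2 to -0.78 for Sytl2. The remaining probe set of Fabp3 overlapped between the groups. Vstm5 had the smallest unadjusted p of the genes named after Rb1 (0.0005), with 6.12 and 5.88 against 5.18 and 5.16.

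**Figure D3:**
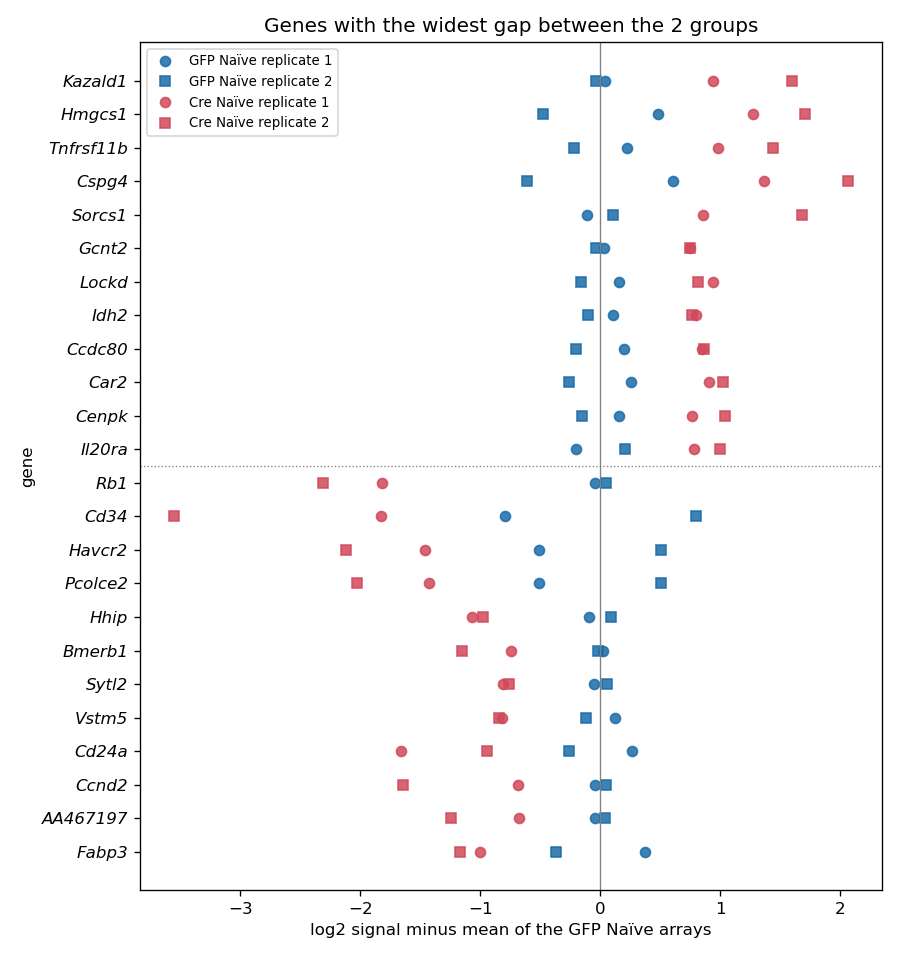
Log2 signal of each untreated array minus the mean of the GFP Naïve arrays (horizontal axis) for the 12 genes with the widest gap in each direction (rows, higher above and lower below the dotted line). Circles are replicate 1 and squares replicate 2, and the genes were picked for the gap that is shown; Cd34 reaches farthest, and Idh2, Gcnt2, Sytl2 and Vstm5 have Cre Naïve arrays close to each other.

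The 2 Cre Naïve arrays differed from each other about as much as the 2 GFP Naïve arrays did. Between the former 4766 probe sets differed by 1.5-fold or more, and 4710 did so between the latter. Between the groups, Cre Naïve replicate 1 differed from GFP Naïve replicates 1 and 2 at 1842 and 3862 probe sets, and Cre Naïve replicate 2 at 4564 and 5525. Against the GFP Naïve mean, Cre Naïve replicate 1 differed by 1.5-fold at 1427 probe sets (961 higher, 466 lower) and replicate 2 at 3998 (1639 higher, 2359 lower). Both arrays were higher at 115 probe sets and lower at 159, and 318 went in opposite directions. Cyp2f2, a cytochrome P450, read 10.34 on Cre Naïve replicate 1 and 4.02 on replicate 2, with 10.03 and 6.16 on the GFP Naïve arrays. Egfl6, a matrix protein with EGF repeats, read 8.75 and 3.06, with 6.68 and 4.66 on the GFP Naïve arrays. Both genes were low on the Cre Recurred arrays, at 3.61 and 4.06 for Cyp2f2 and at 2.58 on both for Egfl6. The same order, with Cre Naïve replicate 2 far below replicate 1, held for Sbspon, Chl1, Gdf10, Apoe, Gpm6b and Cdo1. In the other direction Dlk1, a Notch-like protein of preadipocytes, read 5.77 and 10.45, and its level on the Cre Recurred arrays was 4.86 and 6.19. Asb5, which is known from muscle, read 3.55 and 7.85 and stood at 9.53 and 8.82 on the Cre Recurred arrays. Gfra2, Tafa5, Chrna1, Pde3b, Gsc and Eya4 followed with differences from 2.95 to 3.92. Sfrp2, a secreted Wnt antagonist, was lower on replicate 2 alone, with 10.82 and 10.15 on the GFP Naïve arrays and 10.76 and 7.05 on the Cre Naïve arrays. Lum, the proteoglycan lumican, and Sfrp1 overlapped between the groups, with 12.23 and 11.06 against 13.15 and 10.35 for Lum and 12.28 and 12.03 against 12.81 and 11.23 for Sfrp1. By contrast, the Cre Naïve arrays were 0.49 apart for Rb1, which neither followed this pattern nor overlapped.

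**Figure D4:**
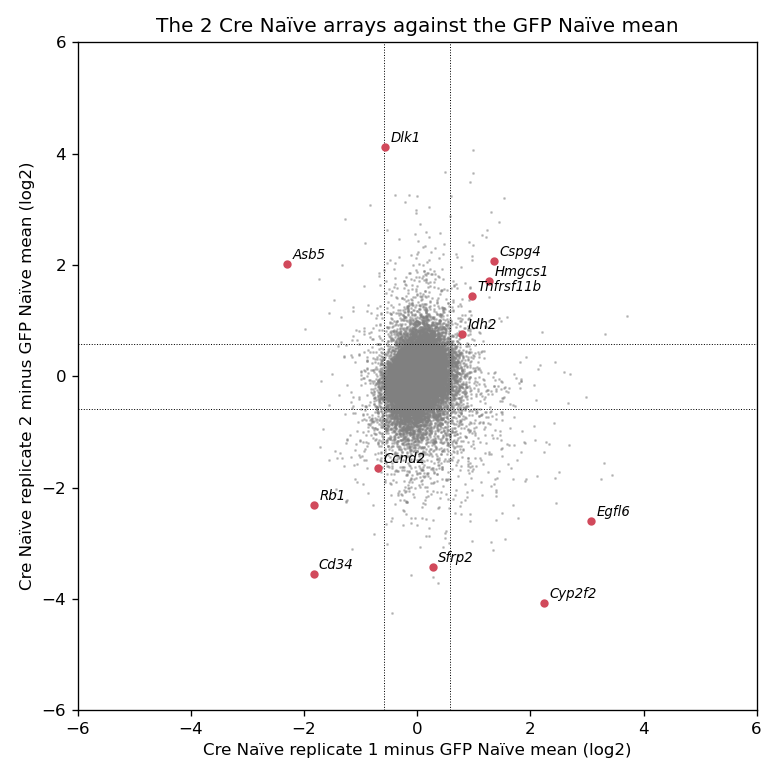
Log2 difference from the GFP Naïve mean on Cre Naïve replicate 1 (horizontal axis) and replicate 2 (vertical axis) for each of 45037 probe sets, with dotted lines at 1.5-fold. Rb1, Cd34 and Ccnd2 lie in the lower left and Cspg4, Hmgcs1, Tnfrsf11b and Idh2 in the upper right, where both arrays moved the same way, while Dlk1, Asb5, Cyp2f2, Egfl6 and Sfrp2 lie off that diagonal.

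Whole chromosomes shifted on single arrays as well. Over the 545 genes of chromosome 3 with a mean above the median signal, the median log2 difference from the GFP Naïve mean was 0.23 on Cre Naïve replicate 2 and 0.01 on replicate 1, and it was 0.24 and 0.22 on the Cre Recurred arrays. Chromosome 13, which holds Hmgcs1, stood at 0.20 on Cre Naïve replicate 2 and 0.07 on replicate 1, and chromosome 16 at -0.15 and 0.02. The GFP Naïve arrays differed in the same way, by 0.26 on chromosome 6 and -0.26 on chromosome 10 for replicate 2 less replicate 1. No copy number was measured, and the part of these shifts in the differences of single genes was not tested.

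**Figure D5:**
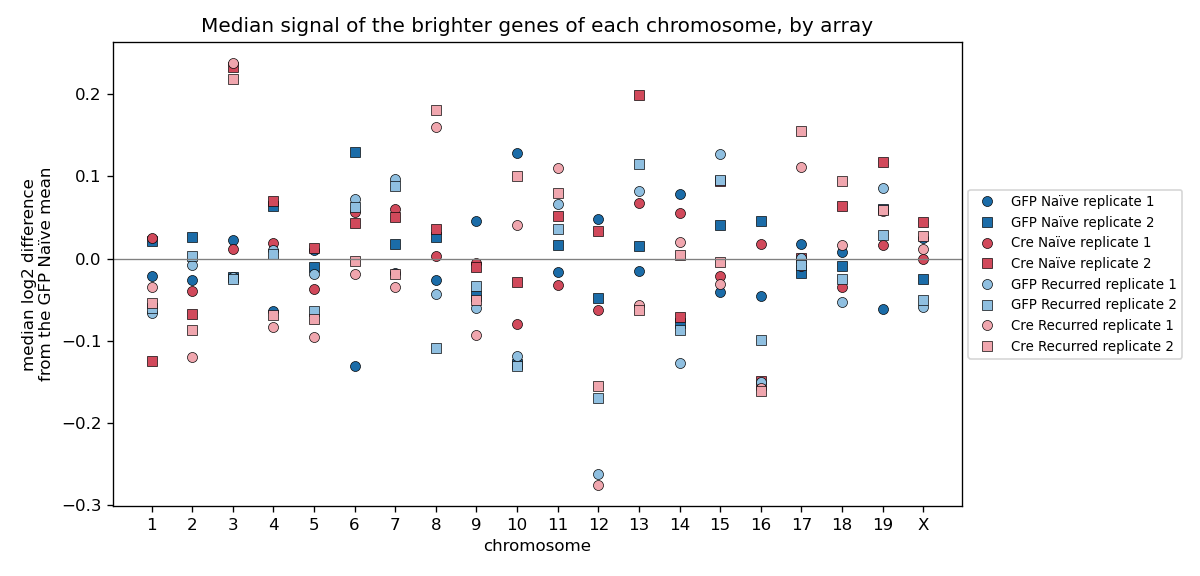
Median log2 difference from the GFP Naïve mean (vertical axis) over the genes of each chromosome (horizontal axis) whose mean lies above the median signal, 1 point per array, with circles for replicate 1 and squares for replicate 2. On chromosome 3 Cre Naïve replicate 2 and the Cre Recurred arrays lie near 0.23 and the other 5 arrays near 0.

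Probe sets picked on the untreated arrays were then looked at on the recurred arrays, which share no array with them. Single untreated arrays were nonetheless close to recurred ones. Cre Naïve replicate 2 differed by 1.5-fold from Cre Recurred replicate 2 at 2516 probe sets and from Cre Naïve replicate 1 at 4766. Cre Naïve replicate 1 differed from GFP Recurred replicate 1 at 1814. The part of this likeness in the counts below was not tested. The recurred cells grew from cells of the same 2 kinds, and which untreated population each came from is not stated. Of the 284 probe sets (0.631% of all) that lay at least 1.5-fold higher on the Cre Naïve arrays without overlap, 30 did so on the Cre Recurred arrays against GFP Recurred (10.6%, against 5.2% of all) and 58 lay lower (20.4%, against 6.36%). Of the 344 (0.764%) that lay lower, 115 lay lower again (33.4%, or 4.01% of the 2866 that did so in recurred cells) and 46 higher (13.4%). Probe sets picked for a wide gap are also ones that vary, and both directions lay above the share over all probe sets. At the thresholds of the study 38 of the 284 turned round and passed as lower in the recurred cells, and 32 of the 344 passed as higher. In the same direction as in untreated cells 19 of the 284 passed as higher and 87 of the 344 as lower, where 4.08% and 4.78% of all probe sets passed. With GFP Recurred replicate 1 or 2 left out 0 of the 284 passed, with Cre Recurred replicate 1 left out 2 and with replicate 2 left out 9. Of the 344, in the same order, 17, 4, 15 and 60 passed. Rb1 was lower again, with 8.21 and 8.78 against 4.98 and 5.45 (-3.28, limma adjusted p = 0.015). Cd34 read 10.63 and 9.74 against 8.64 and 7.41 and Ccnd2 12.25 and 11.98 against 11.31 and 11.05, and both passed the thresholds as lower in recurred cells (limma adjusted p = 0.211 and 0.141). Other genes lay the opposite way, and the difference between the 2 comparisons itself passed the thresholds for 180 probe sets (0.4%) by limma's interaction test. The number that passed this test changed widely with single arrays left out. Tnfrsf11b, higher on both Cre Naïve arrays, fell in the recurred comparison, with 7.40 and 7.76 against 4.35 and 4.19 (-3.31, limma adjusted p = 0.0116), and Wnt4 fell with 7.81 and 7.91 against 5.51 and 5.65 (-2.28, limma adjusted p = 0.0409). Ccnd1, lower on both Cre Naïve arrays, read 11.03 and 10.90 against 11.73 and 11.08.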

How the data were processed

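Total RNA from 8 cultures was hybridized to 1-colour Affymetrix mouse genome arrays, 2 for each of 4 populations. The authors scanned them with GeneChip Operating Software 3.0 and deposited log2 signals made with RMA, per the labels and methods. The RMA program and its version are not given in the sources used here. The deposited log2 values were used without further normalization. Of 45101 probe sets 64 controls were left out, and gene symbols came from the array annotation (34945 probe sets with 1 symbol, 932 with several, 9160 with none). The test was limma 3.58.1 (R 4.3.3), in a linear model of all 8 arrays that holds the 4 population means and no further term (residual degrees of freedom 4, prior 3.07, prior SD 0.166), and p-values were adjusted by Benjamini-Hochberg over 45037 probe sets. The study called changes with SAM, and a SAM-type statistic was run beside limma. The scripts were tested on simulated data.

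Each gene of a list was represented by its brightest probe set. The 40 lists hold 1016 genes, of which 955 were found, 7 under a newer symbol. The named genes were drawn from Rb1, those the study names for these cells, and genes picked by rules. The rules took the 12 with the widest gap between the groups in each direction among the brighter probe sets. They also took the 4 members of a list whose unadjusted p was smallest and the members of a count of 5 or fewer. The 8 with the largest difference between the Cre Naïve arrays in each direction were taken as well. Not every gene so picked is described, and Clu, Gpr149 and Pla2g7 of the study are among those left out. Cell markers, E2f1, Rbl2, Cdk4, Cdkn2a, Mcm6 and Ror2 and the lone genes of a list were named besides. The members and lists were chosen with earlier results of these data known. Promoters came from RefSeq (GRCm38.p6), and 27025 genes had one. Alternatives were the 4 untreated arrays alone, array weights (statmod 1.5.0), another prior, loess, median centring, brighter probe sets only, no probe sets with shared probes, the replicate number as a block and leaving out each array. Figures were drawn with matplotlib 3.10.9 in Python 3.11.15. Whether scans fell into batches was not analysed here.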

Additional observations from a re-analysis of the deposited data

Results flagged for a closer look

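Of the genes followed here, 8 passed limma's interaction test, which compares the Cre minus GFP difference in recurred cells with that in untreated cells. In it 180 of 45037 probe sets (0.4%) passed 1.5-fold and an adjusted p under 0.25. That number changed widely with single arrays left out, so the 8 genes are not shown to hold without any 1 array. Each value is the recurred log2 difference less the untreated one. The most pronounced by adjusted p was Tnfrsf11b at -4.51 (adjusted p = 0.0557), from 1.21 in untreated to -3.31 in recurred cells. Sfrp1 had -6.71 (adjusted p = 0.172), from -0.14 to -6.85, and Lum had -7.65 (adjusted p = 0.228), from 0.10 to -7.55. In Wnt4 the value was -3.30 (adjusted p = 0.172, from 1.02 to -2.28). In the Wnt receptor gene Ror2 the value was -3.25 (adjusted p = 0.175, from 0.60 to -2.65). In the cytokine receptor gene Il20ra the value was -2.19 (adjusted p = 0.172, from 0.89 to -1.30). The opposite turn was found for Vstm5 at 1.61 (adjusted p = 0.172, from -0.83 to 0.78) and for the survival gene Bcl2 at 1.67 (adjusted p = 0.242, from -0.36 to 1.31).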

How the results depend on the processing

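The count of 0 probe sets past the thresholds held for the untreated comparison under every fit of all 8 or of the 4 untreated arrays. With 1 array left out it ran from 0 to 275. The 275 (110 higher, 165 lower) arose without Cre Naïve replicate 1, when Rb1 passed as well (-2.31, adjusted p = 0.144). Rgs4 and Heph passed without GFP Naïve replicate 1 (-2.26 and -3.01), and Nts without Cre Naïve replicate 2 (3.71). At an adjusted p under 0.05 the count ran from 0 to 2, with Map2 and Hecw1 without Cre Naïve replicate 1, and the Rb1 difference ran from -2.31 to -1.82. With an array left out the remaining one of its group is assumed to vary like the others. Sfrp2 turned to 0.28 without Cre Naïve replicate 2 and passed at -3.44 without replicate 1, as did Tnfrsf11b (1.44), Sorcs1 (1.68), Bmerb1 (-1.15) and the Ccnd2 probe set with the widest gap (-1.64), with adjusted p from 0.0658 to 0.230.

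The count of 628 probe sets that lay apart by 1.5-fold was 121 at 2-fold and from 1263 to 3825 with an untreated array left out, where fewer arrays have to be apart. Genes that lay higher numbered from 20 to 36 of the G1/S list with an array left out, from 23 to 38 of the G2/M list and 20 or 21 of the sterol list. Repeats in recurred cells ran from 0 to 311 for higher and from 4 to 782 for lower probe sets. With all arrays these repeats were 19 of 284 higher and 87 of 344 lower probe sets. The upper ends of both ranges exceed 284 and 344. They belong to the larger sets picked anew with an untreated array left out, 1263 to 3825 in both directions together. The ranges are thus counts out of sets of different size, and no change in the share that repeated can be read from them. Of 320 list medians under the alternatives, 24 moved by more than the spread between replicates.

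The labels do not say that equal replicate numbers mark pairs. The deviations of same-numbered arrays correlated over probe sets with r = 0.127 between GFP Naïve and Cre Naïve and 0.307 between GFP Recurred and Cre Recurred, and over all 6 pairs of populations from -0.255 to 0.307, so the numbers were not taken as pairs. In the untreated comparison a fit that blocked on replicate (the replicate block) called 0 probe sets, with 1444 at an unadjusted p under 0.05. The array weights of limma were the same for both arrays of a population, so 1 array could not be weighted down.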
